A study of Caenorhabditis elegans with 4 samples.

Results

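The sites described here are the ZTF-4 peaks on the X chromosome of Caenorhabditis elegans. They were chosen by location alone, as every interval on X in the authors' 3 peak lists. The combined list holds 129 of them among its 855 peaks, replicate 1 holds 72 among 379 and replicate 2 holds 61 among 394, or 262 of 1628 intervals in all. The combined peaks are used as the sites and the replicate peaks as their support. By its name the combined list draws on the same libraries, so replicate support for its best peaks is not independent evidence. Chromosomes I to V, with 726 combined peaks, are the background.

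The peaks come from chromatin immunoprecipitation and sequencing (ChIP-seq) of hermaphrodites harvested as L1 larvae, the earliest larval stage. The series has 2 ChIP libraries and 2 input libraries (chromatin set aside before the immunoprecipitation), all from strain OP322. In these worms the unc-119(ed3) mutation is rescued by unc119(+) on the transgene wgIs322, which also encodes ZTF-4 joined to TY1, EGFP and FLAG tags. The strain was made by biolistic transformation and was not outcrossed, and chromatin was fixed with 2% formaldehyde and collected with antibodies against GFP. Peaks therefore mark the tagged transgenic protein, and the input libraries, which share strain and stage, have no values here. The labels give growth at 20 °C and also 26 °C beside the stage, and do not say whether the replicates were separate cultures. No reads are counted in the lists, so the depth behind them is unknown. A missing peak may be a site below the calling threshold.

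Zinc-finger transcription factors contact DNA through small domains folded around a zinc ion, and many act at promoters and enhancers. The X chromosome of this worm differs from the autosomes in ways known from other work. Hermaphrodites carry a pair of X chromosomes, whose expression is lowered by a dosage compensation complex that loads onto X in the embryo. The autosomes have gene-dense centres flanked by arms that recombine more and hold more repeats, a division that is weaker on X.

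The strongest X sites were found in both replicates, and most stood alone. Each peak carries a q-value from the authors' peak caller, and a smaller q gives a better rank within its own list. The best X site, X:4141991-4149129 (coordinates are in the WormBase build WS180), was also the best of all 855 combined peaks. Its q was 2.87e-215 in the combined list, 3.4e-101 for the best of its 3 parts in replicate 1, and 1.63e-104 in replicate 2, where it was a single peak of 6882 bp. The second, X:16929274-16931999, had q = 7.39e-133 and rank 5 of the combined list. Its intervals were nearly the same in every list, with widths of 2726 bp in the combined list, 2661 bp in replicate 1 (rank 4) and 2662 bp in replicate 2 (rank 3). The third and the fourth, X:6736217-6745269 and X:6252037-6256722, had q = 2.3e-102 and 1.59e-100. They ranked 15 and 12 in replicate 1 and 7 and 10 in replicate 2.

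After these 4, most of the leading X sites were shorter. The fifth, X:1503492-1505186, was 1695 bp wide with q = 2.82e-64. It ranked 21 in replicate 1 and 26 in replicate 2. The sixth, X:8035964-8036876, reached q = 7.12e-61 with only 913 bp, and was 927 bp wide in replicate 1 (rank 14) and 857 bp wide in replicate 2 (rank 13). The seventh, X:17419456-17422317, was again wide, at 2862 bp with q = 1.84e-60. The next 3 were X:14525414-14526390 (977 bp, q = 2.74e-58), X:2996414-2997476 (1063 bp, q = 5.33e-55) and X:4208567-4209598 (1032 bp, q = 2.62e-51). All 10 of these sites ranked between 1 and 27 in the combined list, between 2 and 29 in replicate 1 and between 1 and 31 in replicate 2, taking the best replicate peak where there were several. Of the first 20 X sites, down to rank 70 of the combined list, 20 had support from both replicates, 10 were under 1000 bp wide and 17 had no other combined peak within 5000 bp. Over all 129 X sites, 51 had support from both replicates, 87 were under 1000 bp wide and 84 had no such neighbour.

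**Figure D1:**
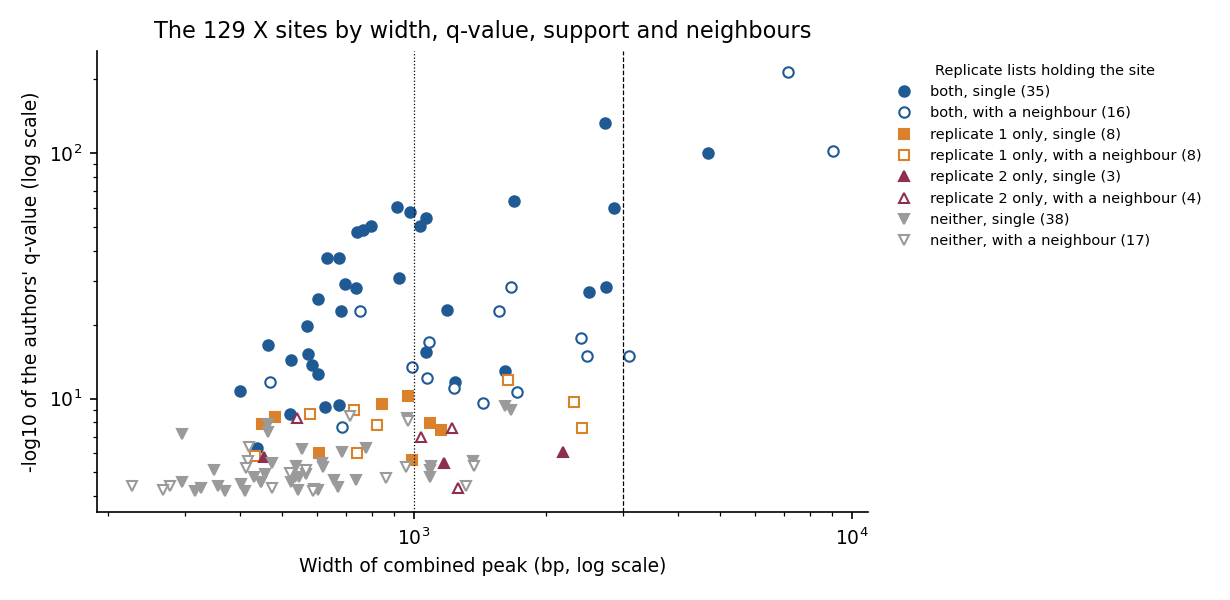
Width of each of the 129 combined X peaks (horizontal axis, bp, log scale) against −log10 of its q-value (vertical axis, log scale), with colour and shape for the replicate lists that hold it. Filled symbols are sites with no combined peak within 5000 bp and open symbols are sites with one. The lines mark 1000 bp and 3000 bp, and a group of 15 filled sites from both replicates lies left of 1000 bp among the strong sites.

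Short and lone sites were a larger part of the strong sites on X than of those on the autosomes. The best 20% of the combined list, 171 peaks with q up to 3.51e-15, held 34 X peaks and 137 autosomal peaks. All 34 on X were found in both replicate lists, as were 131 of the 137 on the autosomes. The median width in this group was 1047.5 bp on X and 1665 bp on the autosomes. No other combined peak lay within 5000 bp of 25 of the 34 on X (73.5%) and 49 of the 137 on the autosomes (35.8%). Of these 34 X sites, 15 (44.1%) were both alone and under 1000 bp, against 19 of the 137 autosomal sites (13.9%). The single autosomes had 1 (V) to 8 (III) such sites. This width and neighbour class was chosen after the values were seen, so its shares are a description with no test. The 15 sites were 465 to 977 bp wide and ranked 20 to 158. They lay from 4.61 to 95.3% of the length of X, with 13741 to 286081 bp (median 61561 bp) to the nearest other combined peak. Examples other than the sixth and the eighth site are X:6296158-6296955 (798 bp, q = 4.39e-51), X:11093665-11094429 (765 bp, q = 2.76e-49) and X:9465395-9466134 (740 bp, q = 2.22e-48). Their ranks were 19, 34 and 43 in replicate 1 and 16, 25 and 34 in replicate 2.

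Whether X holds an unusual share of strong or broad sites was compared with the autosomes. Of the X peaks, 26.4% were in the best 20% of the combined list, and of the autosomal peaks 18.9% (34 of 129 and 137 of 726; 20% of the whole list by construction). The difference of 7.49 percentage points missed the threshold (two-sided Fisher's exact test, odds ratio 1.54, 95% interval 0.965 to 2.41, p = 0.0561, adjusted by Benjamini-Hochberg over the 7 comparisons of X with the autosomes 0.116). Within each replicate list the share was higher on X. It was 33.3% on X and 16.6% on the autosomes in replicate 1 (24 of 72 and 51 of 307, Fisher's exact test, unadjusted p = 0.00273), and 32.8% and 17.4% in replicate 2 (20 of 61 and 58 of 333, Fisher's exact test, unadjusted p = 0.00842). In the best 10% of the combined list the shares were 17.1% on X and 8.68% on the autosomes (Fisher's exact test, unadjusted p = 0.00607). The tests treat peaks as independent, although neighbours are not and shared sites enter every list, and the p-values describe these lists rather than variation between cultures.

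Broad peaks of at least 3000 bp were few on X. There were 4 of 129 on X (3.1%) and 29 of 726 on the autosomes (3.99%), against 3.86% of the whole list (Fisher's exact test, odds ratio 0.769, interval 0.193 to 2.25, adjusted p = 0.806). Those 4 carried 17.6% of the 136 kb covered by X peaks. They include the best, the third and the fourth X site. The other broad peak, X:4138534-4141628 (3095 bp, q = 1.31e-15), lies 362 bp before the best site. The next 6 were between 2413 and 2862 bp wide. They were the seventh site, X:13142934-13145672, the second site, X:13349061-13351568, X:11605177-11607661 and X:7951407-7953819. Of these 10 widest sites, 9 had support from both replicates, the exception being X:7951407-7953819, which overlapped a single peak of replicate 1. These 9 were also the ones with q up to 3.51e-15, a limit within which all 34 X peaks were in both lists. So were 131 of the 137 autosomal peaks within that limit. Whether width bears on support apart from q was not tested. The typical X peak was as wide as elsewhere, with a median of 696 bp on X and 694 bp on the autosomes.

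**Figure D2:**
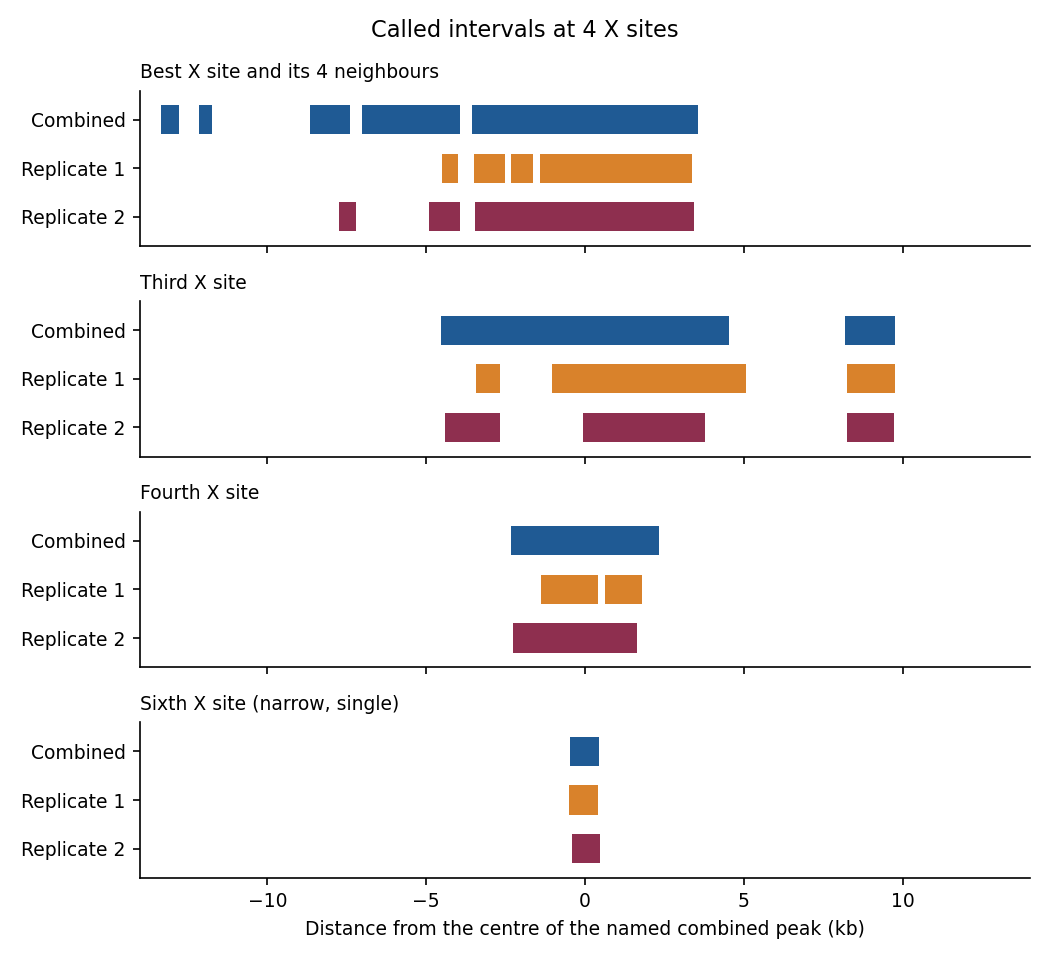
Called intervals of the combined list and of replicates 1 and 2 around 4 X sites, drawn to scale as distance in kb from the centre of the named combined peak. The broad sites are divided differently in the 3 lists, and the sixth site, 913 bp wide in the combined list, is a single short interval in each.

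The lists divided some of the wider sites differently, including 3 of the 4 of at least 3000 bp. At the best site, replicate 1 had separate peaks of 950 bp (q = 7.77e-21), 694 bp (q = 5.79e-06) and 4799 bp (q = 3.4e-101), where replicate 2 had 1 peak. At the third site replicate 1 had peaks of 770 and 6082 bp, and replicate 2 had peaks of 1737 and 3843 bp, within or across the 9053 bp of the combined peak. At the fourth, replicate 1 divided 4686 bp into peaks of 1797 and 1169 bp, and replicate 2 had 1 peak of 3914 bp. In all, 5 of the 51 X sites found in both lists matched 2 or more peaks in a replicate list (3 in replicate 1 and 3 in replicate 2, 1 of them in both). The other divided X sites were the seventh site and X:13142934-13145672, each with 2 peaks in replicate 2. Such division occurred at 19 of 233 such sites on the autosomes.

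X peaks had fewer close neighbours than autosomal peaks. Another combined peak lay within 5000 bp of 45 of the 129 X peaks (34.9%, 95% Clopper-Pearson interval 26.7 to 43.8%) and of 346 of the 726 autosomal peaks (47.7%, 44 to 51.4%). The share for the whole list was 45.7%. The difference of −12.8 percentage points passed the test (Fisher's exact test, odds ratio 0.589, interval 0.389 to 0.883, p = 0.00731, adjusted p = 0.0256). The share was 43.3% (I) to 51.8% (IV) on the single autosomes, all above X, though neither I nor II passed the test against X alone (Fisher's exact test, unadjusted p = 0.168 and 0.148). Restricted to sites that both replicates support, the shares were 31.4% on X and 56.2% on the autosomes (Fisher's exact test, unadjusted p = 0.00179). In the best 20% by q they were 26.5% on X and 64.2% on the autosomes (Fisher's exact test, unadjusted p = 8.87e-05). Among peaks in neither replicate list they were 30.9% on X and 40.1% on the autosomes (Fisher's exact test, unadjusted p = 0.235), and in the arms alone 32.4% on X and 39.8% on the autosomes (Fisher's exact test, unadjusted p = 0.267). In the centres alone the shares were 37.7% on X and 52% on the autosomes (Fisher's exact test, unadjusted p = 0.0409). These subsets were all chosen after the data were seen, and whether the difference varies between them was not tested. In the list of replicate 2 alone the difference missed the threshold, at 32.8% on X and 39% on the autosomes (Fisher's exact test, p = 0.392), while in replicate 1 it was 25% on X and 39.1% on the autosomes (Fisher's exact test, p = 0.0292). It also missed the threshold with neighbours taken within 1000 bp (20.9% on X and 23.3% on the autosomes, Fisher's exact test, p = 0.649). Peak density was lower on X (7.37 per Mb) than on the autosomes together (8.88 per Mb). Chromosome V, with the lowest density (6.69 per Mb), had 50.4% of its peaks close to another. Its peaks were also spread differently, with 28.8% in the arms against 52.7% on X. Whether density bears on the neighbour share was not tested.

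**Figure D3:**
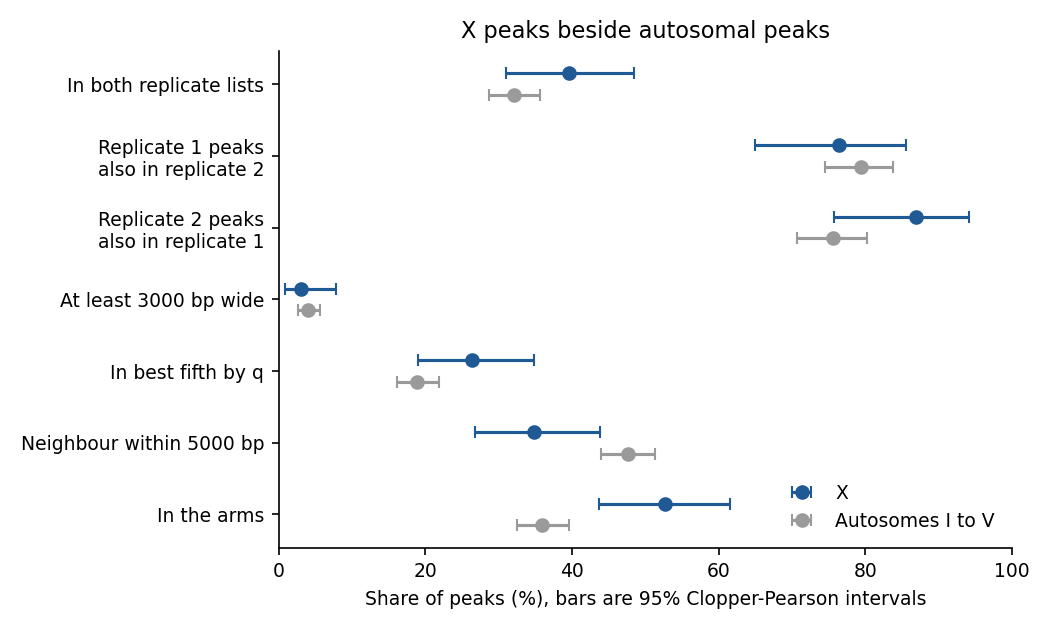
Share of peaks (horizontal axis, %) on X (blue, upper point of each pair) and on the autosomes (grey, lower point) for the 7 comparisons, with 95% Clopper-Pearson intervals. The intervals lie apart for close neighbours (X lower) and for the arms (X higher), and overlap for the other 5 comparisons.

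Counting peaks with gaps of up to 5000 bp as 1 run, X had 101 runs, of which 84 were single peaks, 11 held 2 peaks, 2 held 3, 3 held 4 and 1 held 5. Of the X runs 16.8% held 2 or more peaks, and of the runs on single autosomes 24.8% (I) to 32.2% (IV) did. The run of 5 has the best site at its right end and spans 16925 bp. Its outermost peaks on the side away from the best site, X:4132205-4132771 and X:4133417-4133829, had q = 7.87e-06 and 6.38e-06 and were found in neither replicate list. The 3 runs of 4 peaks differed in support. X:1443277-1452541 had 3 peaks in replicate 1 and 2 in replicate 2, with a best combined q of 1.84e-12. X:3108484-3116825 had 4 and 2, with a best q of 2.09e-18, and its widest part was found in both replicates with widths of 2032 and 2456 bp. X:6201305-6208000 had no peak in replicate 1 and 1 of 393 bp in replicate 2, with a best q of 4.47e-09. Of the 17 X runs with 2 or more peaks, 16 had a peak in replicate 1, 12 in replicate 2 and 11 in both. A replicate peak anywhere in the span of a run counted, and these counts were not compared with autosomal runs.

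Along the chromosome, a larger share of X peaks than of autosomal peaks lay in the arms. Length was taken as the end of the farthest peak in any list (17.5 Mb for X), a lower bound. Arms were taken as the outer 25% at each end, so that arms together and centre are equally long. The left arm held 33 of the 129 X peaks (25.6%), the centre 61 (47.3%) and the right arm 35 (27.1%). In replicate 1 the 72 X peaks divided into 21, 33 and 18, and in replicate 2 the 61 divided into 17, 26 and 18. The arms together held 52.7% of X peaks (interval 43.7 to 61.6%) and 36% of autosomal peaks (32.5 to 39.6%), against 38.5% of the whole list (Fisher's exact test, odds ratio 1.98, interval 1.34 to 2.95, adjusted p = 0.00275). The X peaks were thus divided nearly evenly between arms (68) and centre (61), while the autosomal peaks lay more in the centres. On single autosomes the left arm held 7.08% (II) to 25.3% (IV) and the right arm 12.9% (V) to 31% (II). Against single autosomes the arm share of X passed the test for I, II, III and V and missed it for IV, whose arms held 42.2% (Fisher's exact test, unadjusted p = 0.0785).

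**Figure D4:**
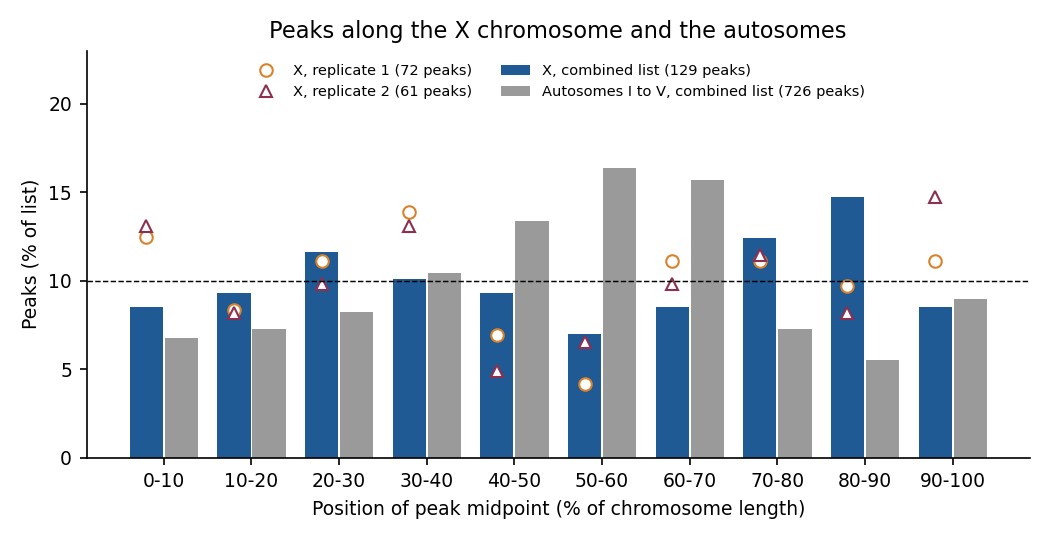
Share of peaks (vertical axis, % of list) in each 10% of chromosome length (horizontal axis, % of length from the left end) for X (blue bars) and the autosomes pooled (grey bars) in the combined list, with the X peaks of replicate 1 (circles) and replicate 2 (triangles). The dashed line is an even spread of 10%. Shares run from 6.98 to 14.7% on X and from 5.51 to 16.4% on the autosomes.

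In successive bins of 10% of its length, X had 9 to 19 combined peaks. The fewest were from 50 to 60% of the length and the most from 80 to 90%, which are also the bins where the autosomes together had the most (16.4%) and the fewest (5.51%) of their peaks. The bin with the most X peaks had little support, with 4 of its 19 peaks in both replicate lists and 12 in neither. The first and the last bin had 11 peaks each, and 8 of the 11 were found in both lists at either end. The support of the X sites therefore varied along the chromosome, between 21.1 and 72.7% per bin, with small numbers in each. In the replicate lists the bins held 3 to 10 peaks of replicate 1 and 3 to 9 of replicate 2. The longest stretch without a replicate peak was the same in both, from 8036832 to 9465481 in replicate 1 and from 8036878 to 9465483 in replicate 2. It runs from the sixth X site, one of the short strong ones, to X:9465395-9466134. In the combined list the longest empty stretch lay elsewhere, with 790738 bp from 3116825 to 3907564.

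Both replicates supported 51 of the 129 X sites (39.5%, interval 31 to 48.5%), replicate 1 alone 16, replicate 2 alone 7 and neither 55 (42.6%). On the autosomes 32.1% were found in both, and in the whole list 33.2%. The difference of 7.44 percentage points missed the threshold (Fisher's exact test, odds ratio 1.38, interval 0.92 to 2.07, p = 0.105, adjusted p = 0.147), and the share of chromosome III, 39.7%, was as high as that of X. It passed by unadjusted p under stricter matching, with 33.3% on X and 23.3% on the autosomes for a reciprocal overlap of 50% (Fisher's exact test, p = 0.0198). Sites found in both had a median width of 977 bp and a median q of 1.93e-23, and sites in neither 543 bp and 1.22e-05. The best X site in neither list was X:2890166-2891779 (1614 bp, q = 4.87e-10, rank 323 of the combined list). The best X site seen in a single replicate was X:14561358-14562997 (1640 bp, q = 1.37e-12, rank 236), which overlapped a peak of replicate 1 at rank 241.

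Replicate agreement on X was counted in both directions. Of the 72 replicate 1 peaks on X, 55 overlapped replicate 2 (76.4%), against 79.5% on the autosomes and 78.9% over the whole list (Fisher's exact test, odds ratio 0.836, interval 0.441 to 1.65, adjusted p = 0.735). Of the 61 replicate 2 peaks on X, 53 overlapped replicate 1 (86.9%), against 75.7% on the autosomes and 77.4% over the whole list. This difference of 11.2 percentage points missed the threshold (Fisher's exact test, odds ratio 2.13, interval 0.951 to 5.4, p = 0.0661, adjusted p = 0.116), but passed by unadjusted p under 4 of the 5 other settings tried (Fisher's exact tests, p from 0.0167 to 0.0388). With both replicate lists limited to their better 50% by q, 92.5% of replicate 1 peaks on X and 76.7% on the autosomes overlapped replicate 2 (Fisher's exact test, unadjusted p = 0.0264). In the other direction the shares were 92.1% on X and 73.6% on the autosomes (Fisher's exact test, unadjusted p = 0.0167). With the other list kept whole, a setting added after the data were seen, neither direction passed. Of the better 50% of replicate 1, 40 of 40 X peaks and 144 of 150 autosomal peaks then overlapped replicate 2 (Fisher's exact test, unadjusted p = 0.346). Of the better 50% of replicate 2, 38 of 38 X peaks and 152 of 159 autosomal peaks overlapped replicate 1 (Fisher's exact test, unadjusted p = 0.35).

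The X peaks that appeared in 1 replicate list were all weak. The 17 found in replicate 1 alone ranked 241 or worse of 379 (best q = 4.97e-07), and the 8 found in replicate 2 alone ranked 265 or worse of 394 (best q = 1.65e-06). None of them was in the better 50% of its list, compared with 6 of 63 such autosomal peaks in replicate 1 and 7 of 81 in replicate 2. Most such autosomal peaks were thus weak too, and the difference was not tested. Of these X peaks, all but 1, X:15075768-15076439 of replicate 1, overlapped a combined peak. One of the 8, X:17421544-17422025, lies within the combined seventh site, whose main part was found in both replicates.

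**Figure D5:**
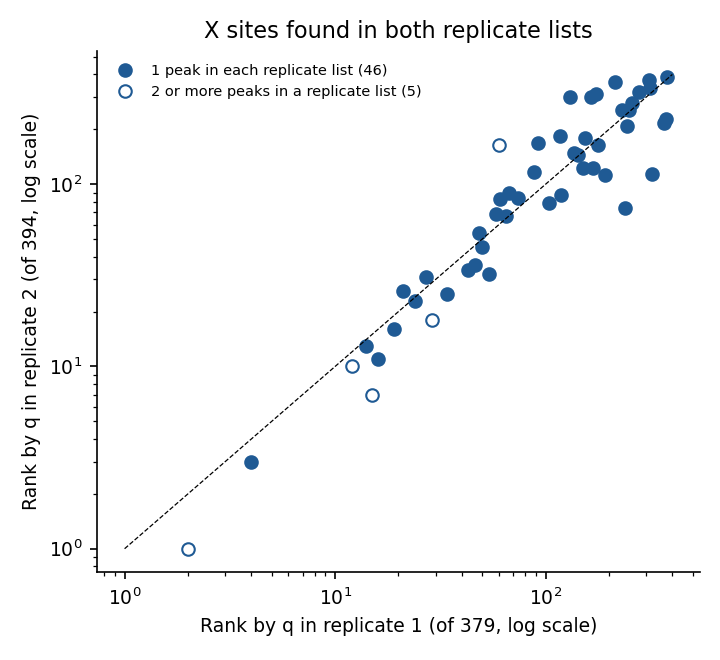
Rank by q in replicate 1 (horizontal axis, log scale) against rank in replicate 2 (vertical axis, log scale) for the 51 X sites found in both lists, with the best peak where a list has several (5 sites, open circles). The dashed line marks equal rank, and the sites lie along it from rank 1 or 2 to the ends of the lists.

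At the X sites found in both lists, the replicates gave much the same order and position. Over the 46 sites with 1 peak in each list, Spearman's rho between the q-values of the replicates was 0.87 on X, and 0.67 over 212 such sites on the autosomes. These are descriptions across sites that share their libraries. The X and autosomal sites were not matched for q, and whether that bears on the difference in rho was not tested. At these X sites the median difference between replicates was 53.5 bp in the start, 45.5 bp in the end and 27.8 bp in the midpoint, and the largest midpoint difference was 496.5 bp. On the autosomes the median midpoint difference was 49.5 bp. The midpoints lay within 200 bp of each other at 43 of the 46 X sites (93.5%) and 182 of the 212 autosomal ones (85.8%). The combined peak was at least as wide as both replicate peaks at 38 of the 46 X sites and at 173 of the 212 autosomal ones. Its median width at the X sites was 855.5 bp, against 684 bp in replicate 1 and 719 bp in replicate 2. The combined q was smaller than both replicate values at all 46 X sites and at 211 of the 212 autosomal ones.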

How the data were processed

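The deposited values are peak intervals, 1 list for each of the 2 ChIP libraries and 1 combined list. Per the file headers, positions refer to WormBase build WS180 and the caller was PeakSeq. The only measurement is the q-value (an adjusted p-value) that the authors deposited for each peak, and it was used only to rank and filter within a list. The sources used here do not give the aligner, read filters, threshold, pooling, depth or use of input. Titles were followed for the groups, since the descriptions name ChIP and input the other way round.

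Peaks sharing at least 1 bp were taken as the same. Runs joined peaks with gaps of up to 5000 bp. Shares on X and on the autosomes were compared with two-sided Fisher's exact tests, adjusted by Benjamini-Hochberg over 7 comparisons, with conditional odds ratios and 95% exact intervals that cover counting error only. Alternatives were judged by unadjusted p at 0.05. Overlap and run counting was tested on simulated lists. The sites named in full are the 10 best X sites, the 10 widest, runs of 4 or more, and the best sites with little support. The other sites named, among them the example short sites and one near the chromosome end, were chosen after their values were seen. The members, comparisons and thresholds were chosen with earlier results of these data known. No genome of this build was used, so genes, sequences and the transgene's own loci were not analysed here. Python 3.11.15, NumPy 2.4.6, SciPy 1.17.1, pandas 2.3.3 and matplotlib 3.10.9 were used.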

Additional observations from a re-analysis of the deposited data

How the results depend on the processing

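Values are differences in percentage points, X minus autosomes. The arm share passed by unadjusted p under 15 of 16 alternatives and missed it against IV alone (10.5). For the arm share and the neighbour share, the alternatives include leaving out each of the 5 autosomes in turn. These settings keep every X peak and most autosomal peaks, so they largely repeat the main comparison. The neighbour share kept its direction under all 21 and passed under 15. It missed the threshold within 1000 bp (−2.35), in arms only (−7.49) and among peaks in neither replicate list (−9.2). It also missed it in the list of replicate 2 alone (−6.25) and against I (−8.4) or II (−9.36) alone. Over the single replicate lists it was −14.1 to −6.25. Support in both lists passed with reciprocal overlap (10.1), midpoints within 200 bp (10.3) and all 3 lists limited to their better 50% (15.8), and was 2.54 to 11.7 when 1 replicate was left out, passing without replicate 2. Overlap of replicate 2 peaks passed with reciprocal overlap (13.5), midpoints (15.2), both lists limited to their better 50% (18.5) and runs counted once (14.7). Overlap of replicate 1 peaks turned positive with both lists limited to their better 50% (15.8) and, without passing, with replicate 2 kept whole (4), and was negative under the other 3 alternatives. The matching settings with whole lists gave 4.84 for support in both lists and 4.4 for replicate 2 peaks, neither passing. The share in the best 20% passed for the best 10% (8.38) and in each replicate list (15.4 to 16.7). It missed the threshold for the best 50% (6.92) and with runs counted once (8.97). The share of broad peaks turned positive at 5000 bp (0.448) and in replicate 2 alone (−1.46 to 2.52 over the replicate lists), passing in none of 6. The cause of these changes was not tested. Several settings were chosen after the data were seen. They are the comparison with single autosomes, the omission of each autosome, the subsets of peaks and the better 50% against whole lists. Runs counted once for neighbours and for replicate overlap were also chosen then. No paired analysis was possible because no values exist here for input. Unknown depth limits what a missing peak shows.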

Other observations

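There were 4 combined X peaks past 99% of the length of X. Length is taken to the last peak, so that peak's end lies there by definition. The count was not compared with the autosomes. These 4 peaks include the seventh X site, X:17419456-17422317, and X:17479426-17480505 (q = 8.92e-18), which ranked 192 in replicate 1 and 113 in replicate 2. The share of combined peaks in neither replicate list was 42.6% on X and 44.6% (V) to 56.7% (I) on single autosomes, a difference that was not tested. The number of replicate 1 peaks for each replicate 2 peak was 1.18 on X and 0.746 (II) to 1.11 (I) on the autosomes, likewise not tested.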
